A study of Homo sapiens with 6 samples.

Results

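The 9 genes described here carry out or assist DNA methylation in human cells: DNMT1, UHRF1, UHRF2 and USP7 of maintenance methylation, DNMT3A and DNMT3B of de novo methylation, and HELLS, CDCA7 and CDCA7L of the linked chromatin remodelling. They were taken by gene name from a table of 35974 genes, where each had 1 row, and all 9 passed the filter on low counts. The cells were SU-DHL-8, an established human cell line of diffuse large B-cell lymphoma, labelled as wild type for DNMT1. One group received the solvent DMSO (3 libraries). The other received GSK3685032, a compound that inhibits DNMT1 (3 libraries). The series design names that compound alone, although the label for treatment names GSK3685033 in inhibitor replicate 2 and GSK3685034 in inhibitor replicate 3. All libraries come from 1 line, and no dose or time of treatment was found in the labels. The labels do not say whether the 3 libraries of a group were grown apart, and the p-values below cover the variation among them, possibly technical variation alone.

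When DNA is copied, each methylated CpG site is left with a methyl group on the old strand alone. UHRF1 binds such hemimethylated sites and marks nearby proteins with ubiquitin, which brings in DNMT1 to methylate the new strand. DNMT3A and DNMT3B place methyl groups without needing a methylated template, and HELLS with CDCA7 moves nucleosomes so that the enzymes can reach the DNA.

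Totals ran from 53846028 to 75304441 estimated counts per library, with about 4 counts per read pair. The 7 B-cell markers examined summed to between 872.7 and 891 FPKM with DMSO and between 804 and 870.4 FPKM with the inhibitor, FPKM being the fragments of a gene scaled to its length and to the size of the library. Of 12 measured markers of T cells, myeloid cells, stroma and epithelium, the highest was the T-cell receptor constant gene TRAC, at 2.02 to 2.86 FPKM with DMSO and 4.99 to 6.63 with the inhibitor. The T-cell marker CD3E was at 0 in every DMSO library and at most 0.302 FPKM with the inhibitor, and the myeloid marker ITGAM was at most 0.00870 FPKM. From the DMSO to the inhibitor libraries the summed FPKM ranges went from 2.02 to 2.86 up to 5.02 to 6.94 for T cells. They went from 0.0990 to 0.132 up to 0.436 to 0.646 for stroma. For epithelium they went from 0 to 0.014 up to 2.74 to 4.15. The myeloid ranges overlapped, at 0.568 to 0.798 with DMSO and 0.746 to 1.01 with the inhibitor. The part of these markers in the results was not tested.

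The maintenance methylation genes were all lower with the inhibitor, by unlike amounts, and the de novo genes were not. With edgeR's quasi-likelihood test and Benjamini-Hochberg adjustment at 0.05, 6 of the 9 genes were lower with the inhibitor (DNMT1, UHRF1, UHRF2, USP7, HELLS and CDCA7L), 2 were higher (DNMT3A and CDCA7) and DNMT3B was not called. The calls of UHRF2 and CDCA7, the 2 smallest called changes, depended on the scaling (UHRF2) or on single libraries (CDCA7), as given with each gene. Of 20783 genes tested, 27.3% were called lower, 38.1% higher and 65.4% in either direction, so a call alone was common. Among the 9 genes, 3 fell at least 2-fold (HELLS, CDCA7L and DNMT1), against 8.1% of tested genes. The FPKM ranges of the groups were apart for 8 of the 9, where 71.7% of tested genes were apart. Both genes that rose were apart, as were 41.7% of tested genes in that direction, and all 6 that fell, as were 30% of tested genes. The median log2 change was -0.40 over the 9 genes and 0.14 over all tested genes. In these bulk libraries, fewer cells expressing a gene and less RNA per cell cannot be told apart.

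**Figure D1:**
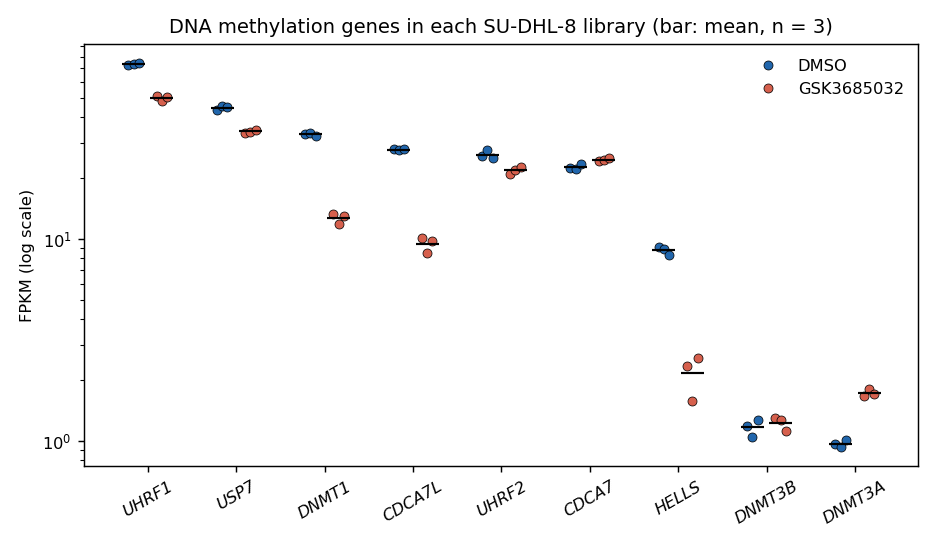
FPKM of each gene in every library on a log axis, with DMSO libraries in blue, inhibitor libraries in red and a bar at each mean (n = 3). The groups are far apart for DNMT1, CDCA7L and HELLS, lie close together for UHRF2 and CDCA7, and overlap for DNMT3B.

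DNMT1 (ENSG00000130816, chr19:10133342-10231286, minus strand, GRCh38), the maintenance methyltransferase and the target of the compound, measured 33.0, 33.6 and 32.2 FPKM in the DMSO libraries. With the inhibitor it measured 13.3, 11.8 and 12.96 FPKM. Every inhibitor library was below every DMSO library, and the mean with the inhibitor was 38.6% of the DMSO mean. The edgeR log2 change was -1.38 (95% interval -1.50 to -1.26, adjusted p = 5.38e-08), and 5.4% of tested genes had a lower log2 change. The deposited interval also covers S1PR2 on the same strand, which had 24 to 51 counts with DMSO and 154 to 243 with the inhibitor, against at least 11218 counts for DNMT1 in every library.

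UHRF1 (ENSG00000276043, chr19:4903080-4962154, plus strand), which reads hemimethylated DNA and recruits DNMT1, was the most abundant of the 9 genes per length in every library. It measured 72.5, 73.4 and 74.2 FPKM with DMSO, and 51.2, 48.3 and 50.7 FPKM with the inhibitor. The groups were apart, and UHRF1 kept 68.2% of its DMSO mean. The log2 change was -0.56 (95% interval -0.65 to -0.46, edgeR adjusted p = 2.44e-06).

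UHRF2 (ENSG00000147854, chr9:6413151-6507054, plus strand), the paralog of UHRF1, moved less. It measured 25.7, 27.6 and 25.1 FPKM with DMSO and 20.9, 21.9 and 22.7 FPKM with the inhibitor. The lowest DMSO library and the highest inhibitor library were therefore close but did not cross. The log2 change of -0.27 (95% interval -0.37 to -0.16, edgeR adjusted p = 0.00079) depended on the scaling: upper-quartile factors, under which the log2 changes of tested genes rose by a median of 0.17, gave -0.094 and no call (edgeR adjusted p = 0.118). With the test limited to genes reaching 1 FPKM it was -0.17 (edgeR adjusted p = 0.00964).

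USP7 (ENSG00000187555, chr16:8892097-8975328, minus strand), a deubiquitinase that binds and stabilises DNMT1 and UHRF1, measured 43.5, 45.7 and 44.9 FPKM with DMSO. With the inhibitor it measured 33.6, 33.9 and 34.8 FPKM, so that each inhibitor library was lower. The log2 change was -0.40 (95% interval -0.48 to -0.31, edgeR adjusted p = 1.29e-05), and -0.23 with upper-quartile factors (edgeR adjusted p = 0.000498).

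The promoters of the 9 genes were searched for the word of E2F factors, which drive genes of S phase. The words were TTTGGCGC, TTTCCCGC, TTTGCCGC and TTTCGCGC on both strands, from 250 bases before to 50 after each RefSeq start site (GRCh38.p14). All 9 genes had at least 1 such window, 18 in all. For DNMT1, UHRF1, USP7, HELLS and DNMT3B every window lay inside the deposited gene. The region at the first base of these genes was not searched. A word was present for DNMT1, UHRF1, HELLS and CDCA7, that is 4 of 9 genes, and in 3.3% of 35116 windows or 4.0% of 27305 genes. The sites of DNMT1 and UHRF1 are shown on the gene's strand with the word, or its reverse complement, in capitals.
DNMT1 (chr19:10194937-10194966, minus strand): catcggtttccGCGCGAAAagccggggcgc
UHRF1, first start (chr19:4909476-4909505, plus strand): gccgagttttcGCGGGAAAaaaatcagagc
UHRF1, second start (chr19:4909973-4910002, plus strand): cccgagcccgaTTTCGCGCgccctgagttc
The DNMT1 word began 2 bases before the start site and ran across it. A match describes letters only and shows no binding.

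DNMT3A (ENSG00000119772, chr2:25227855-25342590, minus strand), a de novo methyltransferase, was the only maintenance or de novo enzyme of the 9 genes that rose. It measured 0.963, 0.934 and 1.01 FPKM with DMSO and 1.68, 1.81 and 1.71 FPKM with the inhibitor. All inhibitor libraries were above all DMSO libraries, at low levels throughout. The edgeR log2 change was 0.83 (SE 0.077, adjusted p = 9.92e-06), or 1.77-fold, and 69.7% of tested genes had a lower log2 change. On the log2(FPKM + 1) scale, which compresses low values, limma gave 0.47 (adjusted p = 0.000312).

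DNMT3B (ENSG00000088305, chr20:32762385-32809356, plus strand), its de novo partner, measured 1.19, 1.05 and 1.27 FPKM with DMSO and 1.29, 1.26 and 1.12 FPKM with the inhibitor. The groups overlapped. The log2 change of 0.06 had a 95% interval of -0.25 to 0.37 (edgeR adjusted p = 0.731), which spans both directions. Its counts, 452 to 632 per library, were the lowest of the 9 genes.

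HELLS (ENSG00000119969, chr10:94545329-94604115, plus strand), the chromatin remodeller of the SNF2 family that maintenance methylation of compact chromatin needs, had the largest change of the 9 genes. It measured 9.16, 8.92 and 8.34 FPKM with DMSO and 2.34, 1.58 and 2.57 FPKM with the inhibitor. Inhibitor replicate 2 was the lowest, and the 3 inhibitor libraries lay far below the DMSO libraries. The log2 change was -2.03 (95% interval -2.37 to -1.69, edgeR adjusted p = 1.96e-06), which is 4.08-fold lower, and only 1.9% of tested genes had a lower log2 change. The deposited interval covers ENSG00000244332 on the same strand, with 76 to 497 counts per library against 1387 to 10190 for HELLS.

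CDCA7 (ENSG00000144354, chr2:173354820-173368997, plus strand), the zinc finger protein that activates HELLS, did not fall with it. It measured 22.4, 22.1 and 23.4 FPKM with DMSO and 24.2, 24.7 and 25.2 FPKM with the inhibitor. The groups were apart by less than 1 FPKM. The log2 change of 0.12 (95% interval 0.03 to 0.21, edgeR adjusted p = 0.0289) was below the median change of all tested genes, and 49.1% of tested genes had a lower log2 change. It was not called without DMSO replicate 1 (0.10, edgeR adjusted p = 0.118), without DMSO replicate 2 (0.10, adjusted p = 0.0911), without inhibitor replicate 3 (0.11, adjusted p = 0.0745) or with inhibitor replicate 1 alone (0.11, adjusted p = 0.15). Scaling moved it upward, to 0.29 with upper-quartile factors (edgeR adjusted p = 0.000156) and to 0.22 with the test limited to genes reaching 1 FPKM (edgeR adjusted p = 0.00106).

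CDCA7L (ENSG00000164649, chr7:21900900-21945903, minus strand), the paralog of CDCA7, fell steeply. It measured 27.7, 27.5 and 27.8 FPKM with DMSO and 10.2, 8.47 and 9.77 FPKM with the inhibitor. The DMSO libraries lay within 1 FPKM of each other, far above the inhibitor libraries. The log2 change was -1.55 (95% interval -1.71 to -1.39, edgeR adjusted p = 1.12e-07), or 2.93-fold lower.

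The 250 bases before the start sites of the 3 remodelling genes are shown because these genes moved differently. E2F words and the box CCAAT are in capitals, on either strand.
HELLS (chr10:94545538-94545787, plus strand): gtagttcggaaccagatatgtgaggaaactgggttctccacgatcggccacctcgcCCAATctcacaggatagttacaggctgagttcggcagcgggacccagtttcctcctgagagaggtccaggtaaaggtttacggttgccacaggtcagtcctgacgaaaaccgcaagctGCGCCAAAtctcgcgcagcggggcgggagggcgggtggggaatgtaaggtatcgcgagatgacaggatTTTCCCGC
CDCA7 (chr2:173354622-173354871, plus strand): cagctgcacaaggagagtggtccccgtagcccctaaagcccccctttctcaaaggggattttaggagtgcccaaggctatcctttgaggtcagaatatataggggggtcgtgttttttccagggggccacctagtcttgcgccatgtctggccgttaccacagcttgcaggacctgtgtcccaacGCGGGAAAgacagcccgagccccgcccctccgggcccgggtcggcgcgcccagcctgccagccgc
CDCA7L (chr7:21945900-21946149, minus strand): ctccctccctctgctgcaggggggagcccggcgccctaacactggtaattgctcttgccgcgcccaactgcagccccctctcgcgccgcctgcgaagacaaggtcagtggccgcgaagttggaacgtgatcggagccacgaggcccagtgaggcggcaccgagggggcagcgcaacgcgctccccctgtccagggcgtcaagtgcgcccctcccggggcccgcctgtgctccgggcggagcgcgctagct
HELLS held 2 E2F words, 76 and 8 bases before the start. CDCA7 held 1, at 65 bases before the start, and CDCA7L held none.

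The windows of the 9 genes differed in CpG content, the letters that carry methylation. DNMT1 had 30 CpG pairs in its window, UHRF1 36 to 46, HELLS 22, CDCA7 20, CDCA7L 34 and UHRF2 26, against a median of 14 over all windows. The 3 windows of USP7 held 0 to 50 and the 6 of DNMT3A 18 to 46. DNMT3B had 3 in the 1 window listed for it (chr20:32779602-32779901). That window lies inside the deposited gene, which starts at 32762385 on the plus strand. The region at that first base was not searched, so the matches given for DNMT3B cover the inner window alone. The matches and CpG counts of DNMT1, UHRF1, USP7 and HELLS likewise cover windows inside the deposited gene alone. The box CCAAT was found for UHRF1, USP7, DNMT3B and HELLS (39.7% of genes), and the cell cycle word TTTGAA in 1 window of DNMT3A (18.2% of genes). GGGCGG, a GC box, was found for every gene except DNMT1 and DNMT3B (48.3% of genes). DNA methylation itself was not measured in these libraries.

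**Figure D2:**
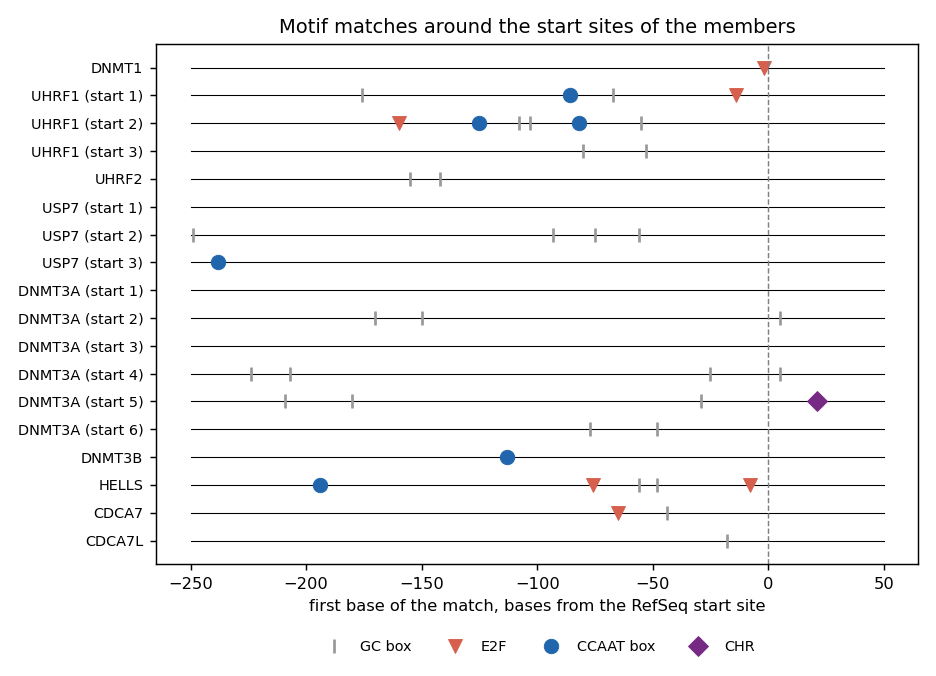
First base of each motif match, in bases from the RefSeq start site, for the 18 windows of the 9 genes. Triangles mark E2F words, circles CCAAT, diamonds TTTGAA and grey ticks GC boxes; E2F words lie in windows of DNMT1, UHRF1, HELLS and CDCA7.

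Levels per length placed the maintenance genes far above the de novo genes. With DMSO the order of mean FPKM was UHRF1, USP7, DNMT1, CDCA7L, UHRF2, CDCA7, HELLS, DNMT3B and DNMT3A. The ranges of neighbours in this order were apart, except those of CDCA7L and UHRF2. With the inhibitor, CDCA7 and UHRF2 stood above DNMT1 and CDCA7L, and DNMT3A above DNMT3B. There HELLS and DNMT3A, at means of 2.16 and 1.73 FPKM, overlapped. Among genes with a mean FPKM of at least 1, DNMT1 stood above 89.2% of 11186 with DMSO and above 75.6% of 12298 with the inhibitor, while UHRF1 stood above 96.2% and 95.1%.

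Ratios within a library do not depend on library scaling, and 10 pairs were compared. The log2 FPKM ratio of every pair differed between groups without overlap, with an exact permutation p of 0.1, two-sided, the smallest that 3 libraries against 3 can give. The adjusted p over the 10 pairs was also 0.1, so none can pass 0.05. Differences of all sizes reached this same p. Of single tested genes, 71.7% had FPKM ranges apart, and the share among pairs of other genes was not computed. The 10 pairs share members, so they are not independent.

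DNMT1 was lower relative to UHRF1 and to USP7 in every inhibitor library than in any DMSO library. Its FPKM was 0.455, 0.458 and 0.435 of that of UHRF1 with DMSO, and 0.260, 0.245 and 0.256 with the inhibitor, a log2 difference of -0.82. Against USP7 the mean ratio went from 0.738 ± 0.0201 to 0.373 ± 0.0239 (SD, n = 3 per group). UHRF1 recruits DNMT1 and USP7 stabilises it, and both transcripts kept a larger share of their DMSO level than DNMT1 did. PCNA, which binds DNMT1, kept a smaller share, at 16.9% of its DMSO mean against 38.6% for DNMT1.

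The ratio of the maintenance enzyme to the de novo enzymes was lower in every inhibitor library. DNMT1 stood at 34.3, 36.02 and 31.8 times the FPKM of DNMT3A with DMSO, and at 7.95, 6.53 and 7.59 times with the inhibitor. Against DNMT3B the mean ratio went from 28.4 ± 3.42 to 10.4 ± 1.13 (SD, n = 3 per group). DNMT3A itself went from 0.809, 0.892 and 0.799 times DNMT3B to 1.29, 1.43 and 1.53 times.

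Both pairs of paralogs had ratios that were apart between the groups. CDCA7 measured 0.808, 0.805 and 0.843 times CDCA7L with DMSO and 2.38, 2.92 and 2.58 times with the inhibitor, a log2 difference of 1.68. UHRF1 measured 2.82, 2.66 and 2.96 times UHRF2 with DMSO and 2.45, 2.21 and 2.23 times with the inhibitor, a smaller difference of -0.29. UHRF1 to USP7 changed least of the 10 pairs, by -0.16 on the log2 scale.

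HELLS was lower relative to its activator and to DNMT1 in every inhibitor library. It measured 0.409, 0.403 and 0.356 of CDCA7 with DMSO and 0.0966, 0.0639 and 0.102 with the inhibitor. The log2 difference was -2.18. Against DNMT1 the log2 difference was -0.68, with inhibitor replicate 2 lowest at a ratio of 0.133.

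**Figure D3:**
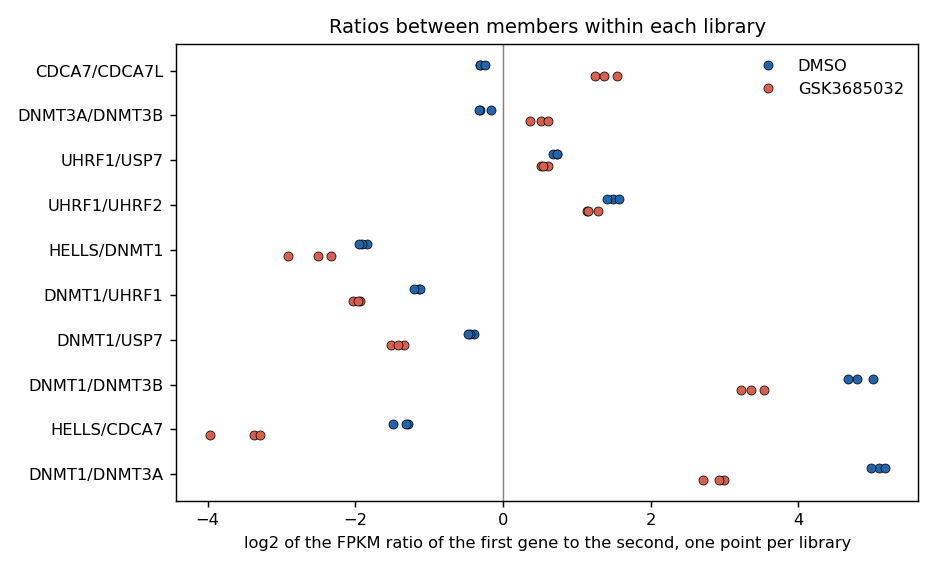
Log2 of the FPKM ratio of 2 genes within each library, 1 point per library, DMSO in blue and inhibitor in red. The ratios of CDCA7 to CDCA7L and of DNMT3A to DNMT3B cross 0, where the genes are equal, while UHRF1 to USP7 moves least.

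Proliferation genes moved alongside the genes that fell. Of 19 genes of S phase and proliferation, all were called lower (edgeR, 27.3% of tested genes lower), with a median log2 change of -2.03. Thymidine kinase TK1 fell most, from 74.6 ± 0.560 to 10.5 ± 2.89 FPKM, followed by the licensing factor CDT1, from 42.2 ± 1.42 to 7.98 ± 1.08. The helicase subunit MCM7 fell least, from 266 ± 6.53 to 122 ± 8.88 FPKM (log2 change -1.13). The changes of HELLS, CDCA7L and DNMT1 lay within the range of that list, and those of the other 6 genes above it. The part of fewer cycling cells in the change of DNMT1 was not tested.

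Other genes of DNA methylation were read from a list of 25, of which 24 were tested, 13 were lower and 5 higher, with a median log2 change of -0.20. Of all tested genes, 27.3% were lower and 38.1% higher. The count of lower genes was 10 with upper-quartile factors and with the test limited to genes reaching 1 FPKM, and the count of higher genes was 8 under both and with counts divided by 4. The germ-cell UHRF1 inhibitor DPPA3 was at 0 in the 3 DMSO libraries and at 0.172, 0.0867 and 0.272 FPKM (12, 6 and 18 counts) with the inhibitor. It did not pass the filter on low counts. Its call as higher without that filter (edgeR adjusted p = 0.00931) rests on very few reads, as about 4 counts stand for 1 read pair. At the replication fork, 4 of 5 tested genes were lower and 0 higher, against 27.3% and 38.1% of tested genes. The sliding clamp PCNA, which binds DNMT1, fell from 916 ± 5.91 to 155 ± 16.9 FPKM. The PCNA-binding factor PCLAF fell from 14.7 ± 0.744 to 4.18 ± 0.735 FPKM, and the ligase LIG1, whose methylated form UHRF1 binds, from 6.98 ± 0.444 to 2.2005 ± 0.137. The H3K9 methyltransferase EHMT2 fell from 14.7 ± 0.227 to 10.2 ± 0.249 FPKM. Across these 4 genes the highest edgeR adjusted p was 4.5e-06. EHMT1 was not called (4.66 ± 0.185 and 5.01 ± 0.0781 FPKM). It was called higher by DESeq2 (0.12, DESeq2 adjusted p = 0.0266) and with upper-quartile factors (0.27, edgeR adjusted p = 0.000342). The test limited to genes reaching 1 FPKM also called it higher (0.19, edgeR adjusted p = 0.00263).

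Writers of H3K36 methylation, which guides DNMT3A and DNMT3B, did not move together. NSD2 fell from 19.0 ± 0.322 to 5.29 ± 0.582 FPKM and SETD2 from 14.7 ± 0.171 to 10.3 ± 0.357, while NSD1 rose from 4.75 ± 0.0580 to 6.33 ± 0.364. ZBTB24, a transcription factor that activates CDCA7, went from 9.53 ± 0.338 to 8.20 ± 0.611 FPKM (log2 change -0.22, edgeR adjusted p = 0.00616). It was not called with upper-quartile factors (-0.051, edgeR adjusted p = 0.458) or with the test limited to genes reaching 1 FPKM (-0.13, adjusted p = 0.0696). DNMT3L, the inactive cofactor of the de novo enzymes, was not called at 0.593 ± 0.0247 and 0.781 ± 0.114 FPKM.

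Of 6 genes that modify DNMT1 or act on its modified form, 4 were lower and 1 higher, against 27.3% and 38.1% of tested genes. DCAF5 was not called (5.56 ± 0.222 and 6.04 ± 0.241 FPKM). It was called higher with upper-quartile factors (0.28, edgeR adjusted p = 0.00104). The test limited to genes reaching 1 FPKM (0.21, edgeR adjusted p = 0.00534) also called it higher. So did counts divided by 4 (0.14, edgeR adjusted p = 0.0368) and DESeq2 size factors in edgeR (0.13, adjusted p = 0.0498). The lysine methyltransferase SETD7 fell from 21.0 ± 1.06 to 8.95 ± 0.786 FPKM and the acetyltransferase KAT5 from 9.94 ± 0.726 to 6.02 ± 0.268. HDAC1 and the demethylase KDM1A were lower by less, with log2 changes of -0.28 and -0.18. KDM1A was not called with upper-quartile factors (-0.0083, edgeR adjusted p = 0.863). It was also not called with the test limited to genes reaching 1 FPKM (-0.084, edgeR adjusted p = 0.0737). With inhibitor replicate 1 alone its log2 change was -0.14. The methyl-lysine reader L3MBTL3 was higher, at a log2 change of 0.17 (edgeR adjusted p = 0.0152), and was not called without DMSO replicate 1 (adjusted p = 0.0501), DMSO replicate 2 (adjusted p = 0.0578) or inhibitor replicate 3 (adjusted p = 0.0576), or with inhibitor replicate 1 alone (adjusted p = 0.298). Of 4 genes of oxidation and excision of methylcytosine, 2 were lower and 0 higher, beside the same shares of all tested genes. Of these 2, 1 was not called with upper-quartile factors, with the test limited to genes reaching 1 FPKM, or by limma with 0.1 added to FPKM.

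Of 4 genes that supply and recycle S-adenosylmethionine, the methyl donor, 3 were higher and 0 lower, where 38.1% of tested genes were higher. MAT2A, which makes the donor, rose from 72.4 ± 0.0351 to 117 ± 3.998 FPKM. AHCY, which clears the product of methyl transfer, rose from 74.8 ± 1.15 to 107 ± 4.06 FPKM, and the methionine synthase MTR from 3.67 ± 0.0471 to 4.57 ± 0.272. MAT2B was not called (8.14 ± 0.353 and 8.72 ± 0.0932 FPKM), but was called higher with upper-quartile factors (0.27, edgeR adjusted p = 0.00083), with the test limited to genes reaching 1 FPKM (0.19, adjusted p = 0.00522) and with counts divided by 4 (0.12, adjusted p = 0.0453). In the same fit, 7 ubiquitous reference genes ranged from a log2 change of -0.76 to 0.53, with 2 called higher and 3 lower.

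**Figure D4:**
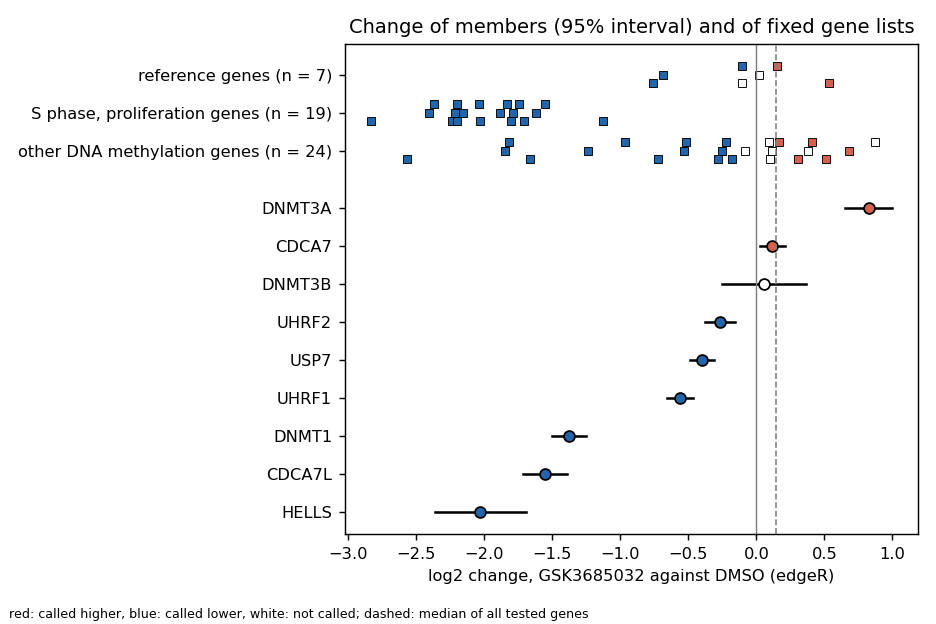
Log2 change with GSK3685032 by edgeR, with 95% intervals for the 9 genes (circles) and single values for genes of 3 lists (squares), coloured by call; the dashed line is the median of all tested genes. HELLS at -2.03, CDCA7L at -1.55 and DNMT1 at -1.38 lie among the S phase genes, while the 24 other DNA methylation genes spread over both sides of 0.

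Genes with the pattern most like each of 5 members were sought among 9687 named genes with a protein-coding transcript and a mean FPKM of at least 1. Likeness was the root mean square difference over the 6 libraries of log2(FPKM + 0.5), centred on each gene's mean. For DNMT1 the nearest were the kinetochore gene SKA2 (0.0223), the citrate cycle gene DLST (0.0246) and the GTPase RAB8A (0.0315), and 137 genes lay within 0.1. For HELLS the nearest were the mitotic genes NEK2 (0.0495), SGO1 (0.0531) and HMMR (0.0584), with 21 within 0.1. NEK2 went from 10.2 ± 0.390 to 2.54 ± 0.507 FPKM.

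Smaller changes had many matches. For UHRF1 the nearest were ZNF768, the arginine methyltransferase CARM1 and TOMM40L (0.0172 to 0.0177), with 1291 within 0.1. For CDCA7 they were UFSP2, ARFGAP2 and the glycolytic enzyme ALDOA (0.0119 to 0.0132), with 1512 within 0.1. For DNMT3A they included CHCHD7 (0.0132) and the prohibitin PHB2 (0.0194), with 564 within 0.1. With 2 groups of libraries, the measure compares mainly the size of the change on the log2(FPKM + 0.5) scale, where the added 0.5 compresses the change of a low gene such as DNMT3A. CHCHD7 went from 8.32 to 12.99 FPKM and PHB2 from 50.4 to 76.4 FPKM.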

How the data were processed

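Poly(A) RNA of 6 libraries was sequenced in pairs after dUTP marking of the second strand, per the labels' protocols. The deposited table holds 2 values of the authors per gene and library, an estimated count (a whole number, used as it stands) and an FPKM value, per the file headers. How either was scaled is not stated there. Counts peaked at multiples of 4 (on average 1319.8 genes at 4, 725.8 at 3 and 474.5 at 5), so about 4 counts stand for 1 read pair. The submitters' processing notes name, without roles, DESeq2, edgeR, StringTie 2.1.6, HISAT2 2.2.1 and cutadapt 1.9, with the mouse build mm10. The gene IDs are human, and 99.89% of 34105 matched genes overlap their GENCODE 29 position, so coordinates were read as GRCh38. No source used here says whether counting used strand.

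Libraries were grouped by title. Pairs of libraries within a group differed by 3.30 to 6.84 times sampling variance. The test was edgeR 4.0.16 (R 4.3.3) with filterByExpr and TMM factors (0.981 to 1.02), two-sided, over 20783 genes. Standard errors are the log2 change over the square root of F. On simulated counts for the same comparison, it recovered 56.8% of 37 genes changed 1.5-fold, 74.5% of 47 changed 2-fold and 95.2% of 42 changed 4-fold among 13186 genes of at least 100 counts. Only 200 genes were changed in the simulation, while 65.4% of tested genes were called in the data. The adjustment therefore differs, and these recovered shares do not give the recovery in the data. Alternatives used DESeq2 1.42.0, limma 3.58.1 (with trend), other scaling, filters and left-out libraries. Named genes were the 9 members, called genes of the list of 25 (its 4 oxidation and excision genes by count only), the 2 largest and the smallest changes of the S phase list, and the 3 nearest patterns of 5 members, 1 of which is not reported here; genes not called, TRAC, CD3E, ITGAM and overlapping genes were named after their values were seen. Members and lists were chosen with earlier results of these data known.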

Additional observations from a re-analysis of the deposited data

How the results depend on the processing

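DNMT1, UHRF1, USP7, DNMT3A, HELLS and CDCA7L kept their direction and call under all 17 alternatives, and the 19 S phase genes were called lower under each. UHRF2 lost its call with upper-quartile factors alone (-0.094, edgeR adjusted p = 0.118). CDCA7 lost its call with the replicate number as a block (log2 change 0.12, edgeR adjusted p = 0.0585) and with inhibitor replicate 1 alone (0.11); leaving out 1 library each gave 0.10 to 0.14. The count of the 9 genes called higher was then 1 in place of 2 with the replicate block and with inhibitor replicate 1 alone, and 1 to 2 with 1 library left out. DNMT3B, never called, turned to -0.014 without DMSO replicate 2 and ranged to 0.13 over the left-out libraries. Of the 25 other genes, 8 were higher with upper-quartile factors, with the test limited to genes reaching 1 FPKM and with counts divided by 4; the cause was not tested. Over all genes, 4826 were higher with the test limited to genes reaching 1 FPKM, and 5260, 5233 and 5259 by limma with 0.5, 0.1 and 1 added to FPKM, where fewer genes were tested (12395 and 14807). Same-numbered libraries correlated at 0.075, 0.067 and 0 in their deviations from the group means, so the numbers were not taken as pairs. The replicate block gave 7448 higher and 5368 lower genes and changed no other call among the 9 genes. Every ratio between members kept its direction under its alternatives. At 452 to 632 counts a library, the 95% interval of DNMT3B ran from -0.25 to 0.37.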
